A study of Mus musculus with 4 samples.

Results

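The genes described are the phase II conjugation enzymes of the mouse: the UDP-glucuronosyltransferases (Ugt), the sulfotransferases (Sult) and the soluble glutathione S-transferases (Gst). They were chosen by gene name alone, from the Ugt1 to Ugt3 series, the numbered Sult genes and the Gst classes alpha, mu, pi, theta, omega, kappa and zeta. On the array 53 genes, with 76 probes, carried such a name: 14 Ugt, 19 Sult and 20 Gst genes. A probe that the scanner software marked as well above background is called detected here. Of the 53 genes, 42 were detected on at least 1 array (13 Ugt, 10 Sult and 19 Gst genes), against 20615 genes on the whole array, and 39 were detected on all 4 arrays. The 11 not detected were Ugt1a6a, Sult2a1, Sult2a2, Sult2a3, Sult2a5, Sult2a6, Sult2a7, Sult2b1, Sult3a1, Sult6b1 and Gstt4, and no probe was named Ugt1a1 or Gsta1. The Ugt1a6a probe is annotated to 4 RefSeq transcripts, so its lack of signal cannot be assigned to Ugt1a6a alone.

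RNA of primary hepatocytes, liver parenchymal cells put into culture, was measured on Agilent arrays with 1 dye, in C57BL/6 mice. The 4 groups were control hepatocytes, Drp1LiKO hepatocytes, control hepatocytes given 200 μM palmitate and Drp1LiKO hepatocytes given 200 μM palmitate, each with 1 array and harvested 24 h after seeding. In Drp1LiKO mice Cre driven by the albumin promoter, which is active in hepatocytes, recombines floxed Dnm1l and removes Drp1, the GTPase that divides mitochondria. The labels call the controls wild-type in one field and floxed in another, while the methods name floxed littermates and male animals, and the animals' ages were not given. According to its label, the untreated control array was also deposited within another series. Both untreated arrays lay on slide 1 and both palmitate arrays on slide 2, so palmitate and slide cannot be told apart, whereas each slide held both genotypes.

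Conjugation is the second phase of drug and hormone metabolism in the liver. UGT enzymes of the endoplasmic reticulum attach glucuronic acid from UDP-glucuronic acid, cytosolic SULT enzymes attach sulfate from PAPS, and GST enzymes attach glutathione to electrophiles, after which the products leave through ABC transporters. Many of these genes are known targets of CAR, PXR, the aryl hydrocarbon receptor and NRF2, and several are known to be expressed differently in male and female liver.

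Levels are log2 of the processed signal minus the 75th percentile of the array, so a level of 0 is the signal at that percentile, and levels of different genes are not comparable. With 1 array a group there was no spread between replicates, so differences between 2 arrays are descriptions without a test. Repeated spots of one probe within an array had a median SD between 0.034 and 0.039 (log2), which covers spot error only. Dnm1l itself stood at 2.42 and 2.43 on the control arrays and at 1.07 and 1.01 on the Drp1LiKO arrays, untreated and with palmitate, and whether its probe lies in the deleted part is not given in the sources used here. Between 44.7% and 51.1% of probes were detected on an array.

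The probes decide which of these near-identical genes a value belongs to, so those that matter for reading the results are shown first. The Ugt1a locus makes several enzymes by joining alternative first exons to a common set of later exons. In mm9, the build of the scanner files, the Ugt1a10 probe (chr1:89952780-89952839) and a Ugt1a6b probe (chr1:90004249-90004308) fell in first exons. A further Ugt1a6b probe (chr1:90114900-90114959) fell in the common part. The first-exon probes shared 32 of 54 aligned bases, which are in capitals.
Ugt1a10: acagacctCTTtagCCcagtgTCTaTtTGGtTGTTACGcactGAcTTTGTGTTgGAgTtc
Ugt1a6b, first exon: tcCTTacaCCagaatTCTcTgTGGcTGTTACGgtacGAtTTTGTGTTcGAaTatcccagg
Ugt1a6b, common part: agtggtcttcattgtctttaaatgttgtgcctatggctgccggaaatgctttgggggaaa

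A probe that crosses an exon junction reads spliced RNA. The coordinates of the following 4 span more than the 60 bases of a probe, and all 4 genes were higher in Drp1LiKO. They lie at chr9:78046172-78047344 (Gsta4), chr3:107846495-107846847 (Gstm4), chr3:107732073-107733247 (Gstm7) and chr5:87495455-87509913 (Ugt2b36), the first on the plus strand and the others on the minus strand.
Gsta4: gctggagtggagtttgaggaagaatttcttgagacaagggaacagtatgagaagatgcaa
Gstm4: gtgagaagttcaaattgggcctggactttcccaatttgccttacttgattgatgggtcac
Gstm7: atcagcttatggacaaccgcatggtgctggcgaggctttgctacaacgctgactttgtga
Ugt2b36: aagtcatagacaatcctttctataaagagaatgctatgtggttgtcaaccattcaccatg

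The Sult2a genes are bile acid and steroid sulfotransferases, some of which are mostly expressed in female mouse liver. The probes of Sult2a1, Sult2a2 and Sult2a4 differ at few positions. Shown are 30 aligned bases of the Sult2a4 (chr7:14495026-14495085), Sult2a1 (chr7:14381602-14381661) and Sult2a2 (chr7:14364926-14364985) probes, with capitals where the 3 are not all alike. Over the aligned part, Sult2a4 shared 51 of 54 bases with Sult2a1 and 47 of 53 with Sult2a2. Between other members the closest pair was Ugt2b5 and Ugt2b37, with 46 of 55 bases.
Sult2a4: ttgttCtGtatcttgaatacctAGatGtgg
Sult2a1: ttgttGtGtatcttgaatacctAGatGtgg
Sult2a2: ttgttCtAtatcttgaatacctGAatAtgg

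In untreated hepatocytes the conjugation genes were on the whole higher in Drp1LiKO than in control, by moderate amounts. The median difference over the 42 genes was 0.47 (log2), against -0.02 over the 19875 genes detected on either array. Of those 19875 genes, 9505 were higher in Drp1LiKO. The family medians were 0.52 for Ugt (11 of 13 higher), 0.12 for Sult (6 of 10 higher) and 0.60 for Gst (15 of 19 higher). With palmitate the median was 0.46 over 41 genes, against -0.03 over 18890 genes, of which 8752 were higher in Drp1LiKO. The families stood at 0.50 (Ugt, 10 of 13 higher), 0.46 (Sult, 7 of 9 higher) and 0.43 (Gst, 14 of 19 higher).

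Differences of 2-fold were few. In untreated cells 4 of 42 genes were at least 2-fold higher in Drp1LiKO (Ugt1a10, Sult1e1, Gstm7 and Gsto2), against 8.84% of all genes, and 2 were at least 2-fold lower (Sult2a4 and Sult4a1), against 5.58%. With palmitate the measured difference reached 2-fold upward in 4 of 41, again Ugt1a10, Sult1e1, Gstm7 and Gsto2, against 7.26%, and downward in none, against 4.26%. Gstm7 and Gsto2 were not detected on the control palmitate array, so that of the 4 only Ugt1a10 and Sult1e1 were measured on both arrays, and Gstm7 is bounded at 1.58-fold. These shares were near those of all genes. With normexp and quantile normalization, which compresses dim values, 0 genes were at least 2-fold higher untreated.

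At 1.5-fold, a size chosen after the values were seen, 18 of 42 genes (42.9%) were higher in untreated Drp1LiKO cells, against 15.2% of all genes. Of these 6 were Ugt, 2 Sult and 10 Gst genes. With palmitate 15 of 41 (36.6%) were higher, against 12.8%, and comprised 4 Ugt, 2 Sult and 9 Gst genes. Lower by as much were 2 of 42 untreated, against 11.5%, and 0 of 41 with palmitate, against 8.36%.

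Of the 39 genes detected on all 4 arrays, 27 were higher in Drp1LiKO in both conditions, against 33.1% of 16611 such genes, and 7 were lower in both, against 45.4%. At least 1.5-fold higher in both were 12 of 39, against 5.8%, and at least 1.5-fold lower in both were 0 of 39, against 4.79%. The 12 were Ugt1a6b, Ugt1a10, Ugt2b5, Ugt2b36, Sult1e1, Gsta3, Gsta4, Gstm1, Gstm3, Gstm4, Gstt1 and Gstt2. The Ugt1a6b value is that of a probe for the common end of the Ugt1a locus, and with all probes of a gene averaged the list held the other 11. Only Ugt1a10 and Sult1e1 were at least 2-fold higher in both, against 2.35%. The 2 conditions are separate arrays on separate slides, but cells of 1 genotype may come from the same animals, which is not given in the sources used here.

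**Figure D1:**
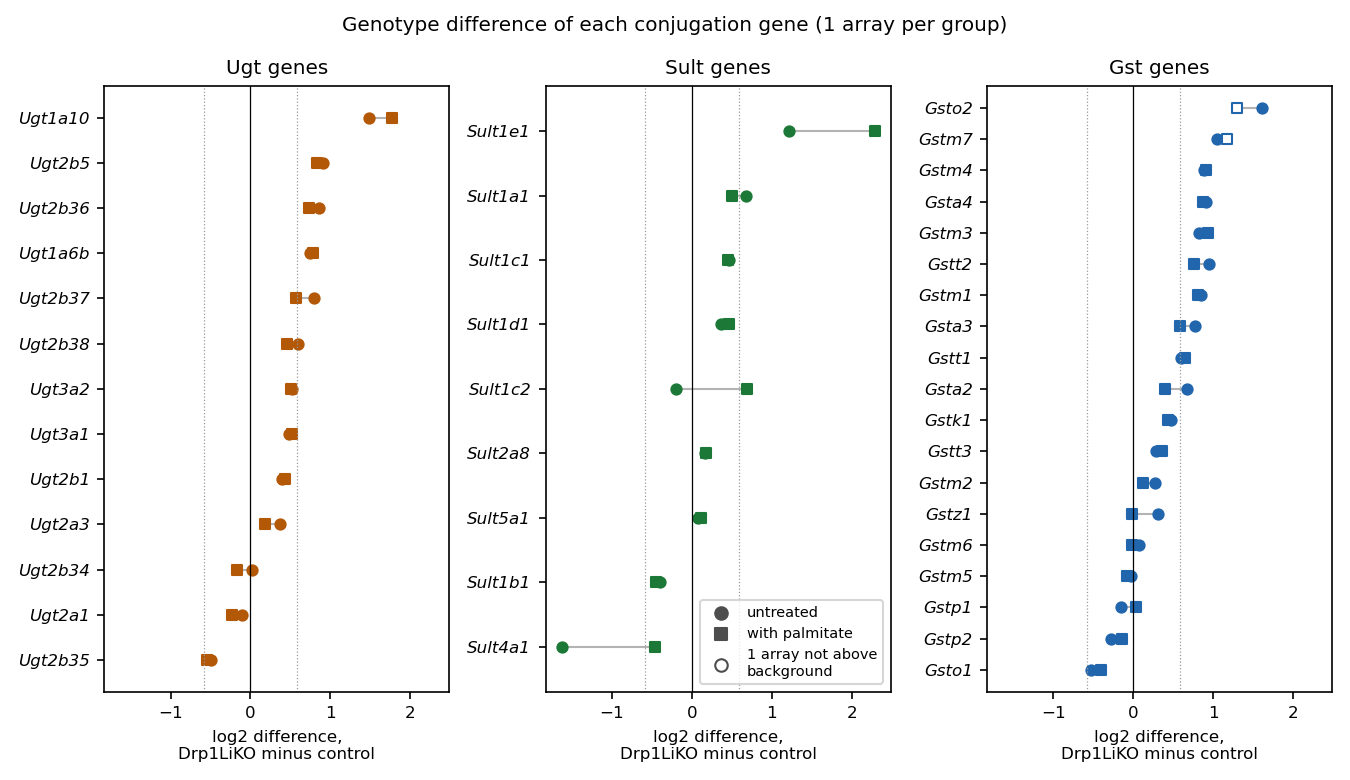
Log2 difference between the Drp1LiKO and the control array for each conjugation gene, untreated (circles) and with palmitate (squares), with dotted lines at 1.5-fold and open symbols where 1 of the 2 arrays was not detected. Most Ugt and Gst genes lay to the right of 0 in both conditions, Sult1e1 and Ugt1a10 lay farthest to the right with palmitate and Gsto2 untreated, and Sult2a4, detected on 1 array only, is not drawn.

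Over all 4 arrays an additive model of genotype and palmitate left 1 residual degree of freedom, and palmitate in it is also the slide. The SE and p of this fit reflect how alike the genotype differences were in the 2 conditions, moderated across genes. They do not measure variation between animals or cultures. With limma's moderated test none of the 42 genes passed an adjusted p of 0.05 for genotype, and neither did any of the 20615 genes, a share of 0%. Before adjustment 28 of the 42 had a p under 0.05, 25 of them higher in Drp1LiKO, against 26% of all genes. With the variance allowed to follow intensity 28 of 42 were called, 23 higher and 5 lower, against 26% of all genes. With the fit limited to genes detected on all 4 arrays 21 of 39 were called, 18 higher, against 15.6%, and with normexp and quantile normalization 12 of 42, all higher, against 7.13%. The calls therefore differed between fits, and the sizes below are given as the values of the arrays. Where both Drp1LiKO arrays are said to lie above or below both controls, this describes the gene. The share of all genes so separated was not counted.

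Among the glucuronosyltransferases the largest difference was that of Ugt1a10, an isoform known from the intestine. Its level was -3.09 in control and -1.61 in Drp1LiKO hepatocytes, and -3.18 and -1.41 with palmitate. The Drp1LiKO arrays were thus 2.81-fold and 3.41-fold higher, and the 2 genotypes did not overlap. With normexp and quantile normalization the log2 differences were 0.78 and 1.00 instead of 1.49 and 1.77. In the additive fit the genotype difference was 1.63 ± 0.12 (SE, log2; limma adjusted p = 0.119).

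Ugt1a6b, which conjugates small planar phenols, was read by 3 probes. The brightest, at chr1:90115493-90115552, is annotated to 4 RefSeq transcripts and so reads the common end of the Ugt1a locus. It stood at 4.01 and 4.75 in untreated control and Drp1LiKO cells and at 3.98 and 4.76 with palmitate, differences of 0.74 and 0.79. The other Ugt1a6b probe in the common part differed by 0.62 and 0.85. The probe named Ugt1a6a (chr1:90116514-90116573), also annotated to 4 RefSeq transcripts, was detected on none of the arrays. The first-exon probe shown above, which is the one that reads Ugt1a6b itself, differed by -0.08 and 0.42. The difference at the common end therefore cannot be assigned to Ugt1a6b, and Ugt1a1, the bilirubin-conjugating enzyme of the same locus, had no probe of that name.

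The Ugt2 genes conjugate steroids, bile acids and many drugs, and 7 of 9 were higher in untreated Drp1LiKO cells (median 0.39) and 6 of 9 with palmitate (median 0.43). Ugt2b5 stood at 0.63 in control and 1.53 in Drp1LiKO cells, and at 0.67 and 1.51 with palmitate, which is 1.87-fold and 1.79-fold. Ugt2b36 stood at 1.13 and 1.99 untreated and at 1.08 and 1.81 with palmitate, with both Drp1LiKO arrays above both controls. Ugt2b37, whose probe resembles that of Ugt2b5, differed by 0.79 and 0.57, and Ugt2b38 by 0.59 and 0.46. Ugt2b1 differed by 0.39 and 0.43.

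Ugt2b35 ran the other way, at -0.84 in control and -1.34 in Drp1LiKO cells, a difference of -0.49, and differed by -0.54 with palmitate. Both Drp1LiKO values lay below both control values. Ugt2a1, known from the olfactory epithelium, differed by -0.11 and -0.23, and Ugt2b34 by 0.02 and -0.17. The Ugt3 enzymes use other sugars than glucuronic acid, and both were higher by similar amounts: Ugt3a1, which transfers N-acetylglucosamine, by 0.48 and 0.53, and Ugt3a2, which transfers glucose and xylose, by 0.52 and 0.50.

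Among the sulfotransferases Sult1e1, the estrogen sulfotransferase, was the one at least 2-fold higher in Drp1LiKO cells. Its level was -1.69 in control and -0.48 in Drp1LiKO cells, and -1.53 and 0.76 with palmitate, so that the genotype difference was 1.21 untreated and 2.29 with palmitate, 2.32-fold and 4.89-fold. Both Drp1LiKO arrays lay above both control arrays. The additive fit gave 1.75 ± 0.37 (SE, log2; limma adjusted p = 0.172). On the control palmitate array 3 of the spots next to the Sult1e1 spot were lit on that array alone, against an average of 0.134 per spot there, and a spot's own share of such light was not tested. The first 30 bases of its probe (chr5:88005187-88005246) were as follows.
Sult1e1: aatggagctctgagccacttccttgtgtct

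The phenol sulfotransferase Sult1a1 stood at -1.80 and -1.12 untreated and at -1.83 and -1.33 with palmitate, differences of 0.68 and 0.50. Its second probe differed by 0.37 and 0.44. Sult1d1, which sulfates catecholamines and eicosanoids, differed by 0.36 and 0.46 at the probe that stands for it and by 0.60 and 0.60 at the other. Sult1c1 differed by 0.47 and 0.46. Sult1b1, which sulfates thyroid hormone, was lower in Drp1LiKO cells in both conditions, at -1.21 and -1.61 untreated and -1.12 and -1.57 with palmitate. Sult5a1 (0.08 and 0.11) and Sult2a8 (0.16 and 0.18) lay close to 0.

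For 3 sulfotransferases the probes or neighbouring spots call for care. Sult2a4 was detected in untreated control cells alone, at -2.76, which was at least 4.53-fold above the Drp1LiKO array. There 2 spots next to it were lit on that array alone, against an average of 0.177, and the near-identical Sult2a1 and Sult2a2 probes shown above were detected on none. Sult4a1, an orphan sulfotransferase of the brain, stood at -0.98 and -2.62 untreated and -1.39 and -1.85 with palmitate at one probe, a difference of -1.63 untreated. At its second probe, detected on both untreated arrays, the untreated difference was 2.51, in the opposite direction. That probe stood at -4.65 in untreated control cells, near the lowest detected level of the array (-4.74), and was not detected on the palmitate arrays. Sult1c2 differed by -0.19 between the untreated arrays and by 0.69 between the palmitate arrays, and 3 spots next to it were lit on the untreated control array alone.

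The glutathione transferases are given by class, and members of one class differed among themselves. In the alpha class, which also reduces lipid peroxides, all 3 measured genes were higher in both conditions (median 0.77 and 0.59). Gsta4, which conjugates the lipid peroxidation product 4-hydroxynonenal, stood at 0.07 in control and 0.98 in Drp1LiKO cells, and at 0.13 and 1.01 with palmitate, or 1.88-fold and 1.83-fold. Gsta3 stood at 4.62 and 5.38 untreated and at 4.87 and 5.45 with palmitate, and its second bright probe differed by 0.82 and 0.65. Gsta2 stood at 5.57 and 6.25 untreated and at 6.04 and 6.43 with palmitate, so that its genotypes did not overlap but lay closer with palmitate.

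In the mu class 6 of 7 genes were higher untreated and 5 of 7 with palmitate, with medians of 0.82 and 0.81. Gstm1, an abundant liver enzyme, stood at 5.32 and 6.16 untreated and at 5.36 and 6.17 with palmitate. The scanner file places that probe on chromosome 5 (chr5:117082490-117082549), away from the Gstm cluster on chromosome 3. A second Gstm1 probe inside the cluster (chr3:107815595-107815654) gave differences of 0.89 and 0.96, close to the 0.85 and 0.81 of the first. Gstm3 stood at 5.99 and 6.81 untreated and at 5.90 and 6.83 with palmitate. Gstm4 stood at 1.03 and 1.91 untreated and at 0.86 and 1.76 with palmitate. In Gstm1, Gstm3 and Gstm4 both Drp1LiKO arrays lay above both controls.

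Gstm7 was near background, at -4.50 and -3.45 untreated, 2.07-fold higher in Drp1LiKO. With palmitate the control array was not detected and Drp1LiKO was at least 1.58-fold higher. Gstm2 (0.27 and 0.12) and Gstm5, the brain and testis form (-0.03 and -0.08), differed less. The 2 bright probes of Gstm6 did not give the same answer: 0.07 and -0.01 at the probe that stands for it, and 0.69 and 0.82 at one that spans a junction.

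In the theta class, which acts on small halogenated compounds and sulfate esters, Gstt1 stood at 3.77 and 4.37 untreated and at 3.77 and 4.41 with palmitate. Gstt2 stood at 0.19 and 1.14 untreated and differed by 0.95 and 0.76 in the 2 conditions, and Gstt3 differed by 0.28 and 0.36. All 3 theta genes were thus higher on both Drp1LiKO arrays. Gstk1, the mitochondrial and peroxisomal kappa form, stood at 1.94 and 2.41 untreated and at 1.83 and 2.26 with palmitate. Gstz1, the zeta form of tyrosine breakdown, differed by 0.30 in untreated cells and by -0.01 in palmitate-treated ones.

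The pi genes differed less and the omega genes ran opposite ways. Gstp1 differed by -0.15 and 0.03, and Gstp2 by -0.28 and -0.14. Gsto1, which also reduces methylated arsenic, was lower in Drp1LiKO cells, at 5.67 and 5.15 untreated and at 5.70 and 5.30 with palmitate. Its second probe gave -0.52 and -0.36. Gsto2, the dehydroascorbate reductase, was dim, at -4.52 and -2.91 untreated (3.05-fold higher in Drp1LiKO), and at least 2.46-fold higher with palmitate, where the control was not detected. A second Gsto2 probe was detected on none.

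**Figure D2:**
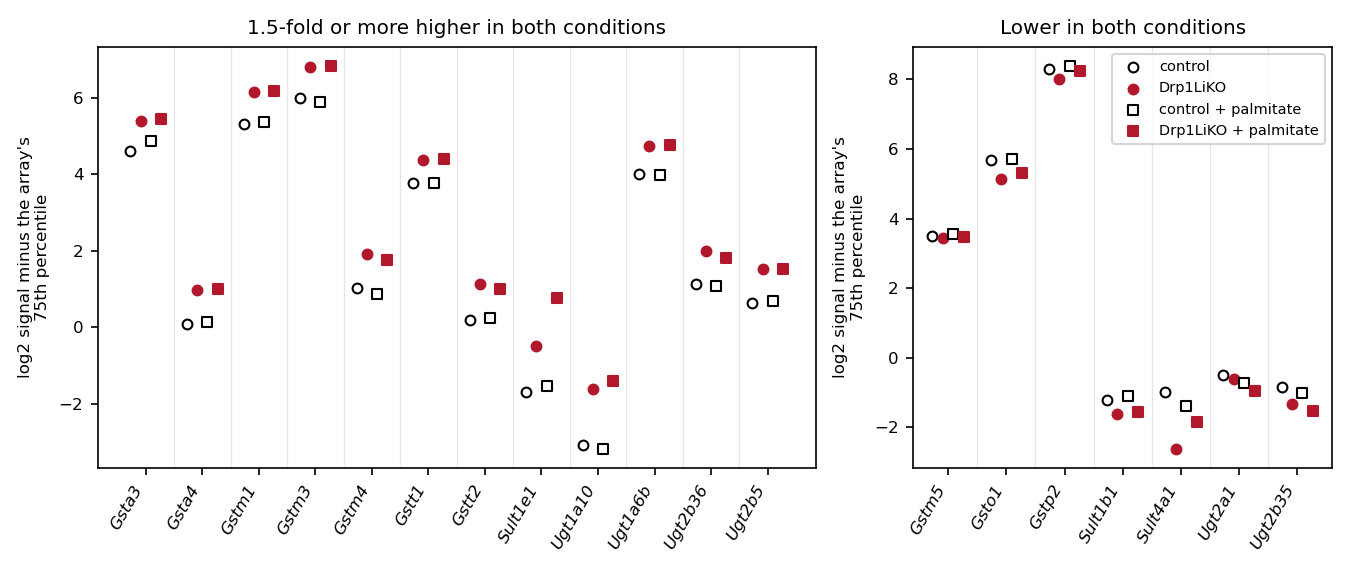
Level on each array (log2 signal minus the array's 75th percentile) of the 12 genes at least 1.5-fold higher in Drp1LiKO in both conditions and of the 7 lower in both, with open symbols for control and filled symbols for Drp1LiKO, circles for untreated and squares for palmitate. In each of the 12 genes both filled symbols lie above both open ones, which follows largely from how the 12 were chosen. Circles and squares of one genotype lie close together except for Sult1e1 and Sult4a1.

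Sult1e1, Sult1c2 and Sult2a4 were not alone in having 2 or more neighbouring spots lit on 1 array only. On at least 1 array this held also for Sult1d1, Sult4a1, Gsta2, Gstm3, Gstm5, Gstm6, Gstz1, Ugt2b35 and Ugt2b36, and its part in their values was not tested. Of the 12 genes at least 1.5-fold higher in both conditions, 9 remained without genes beside such spots.

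Where a gene had 2 or more probes detected on all 4 arrays, 11 genes in all, the probes of most gave similar genotype differences. Gsta3, Gstm1, Gstm5, Gsto1, Gstt2 and Ugt3a2 differed between probes by less than 0.2 in either condition. Gstm6 and Ugt1a6b differed most.

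**Figure D3:**
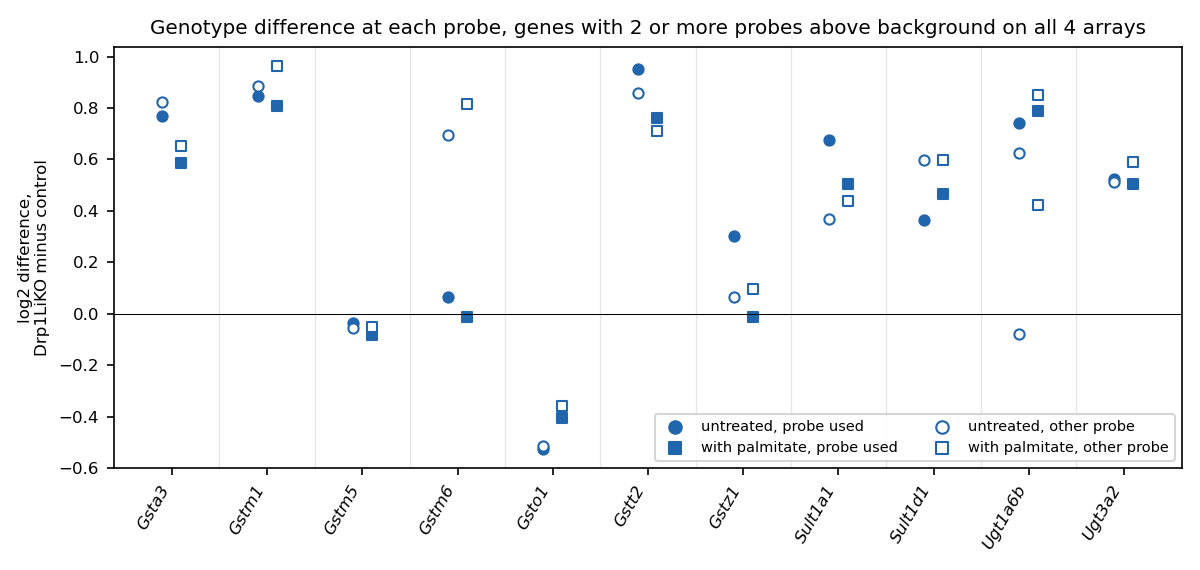
Log2 difference between Drp1LiKO and control at each probe of the 11 genes with 2 or more probes detected on all 4 arrays, untreated (circles) and with palmitate (squares), filled for the probe used for the gene. Symbols of one shape fall close together except for Gstm6 and Ugt1a6b.

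Differences between the palmitate and the untreated arrays, at 200 μM, were small for most conjugation genes in either genotype. In control cells the median difference between the palmitate and the untreated array was -0.03, with -0.05 for Ugt, -0.14 for Sult and 0.05 for Gst. No gene of 42 was at least 2-fold higher, against 2.83% of all genes, and 2 were lower, Sult1c2 and Sult2a4, against 2.87%. In Drp1LiKO cells the median was -0.02 (Ugt -0.17, Sult 0.05, Gst 0.02), 1 of 41 was at least 2-fold higher, Sult1e1, against 3.93%, and none was lower, against 3.11%. Sult1e1 was higher with palmitate by 1.24 in Drp1LiKO and by 0.16 in control cells, and the difference of 1.08 between the 2 responses was not tested.

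Sult1c2 differed by -1.02 with palmitate in control cells, at -1.49 and -2.52, and stood at -1.69 and -1.83 in Drp1LiKO cells. Gsta2 differed by 0.47 in control and 0.18 in Drp1LiKO cells, and Sult1c1 by 0.40 and 0.38. In the Ugt family 10 of 13 genes were lower with palmitate in each genotype, all by under 1.5-fold. Of all genes, 9091 of 18772 were lower with palmitate in control and 9740 of 19747 in Drp1LiKO cells. The additive fit called none of the 42 for palmitate (smallest adjusted p = 0.511; 1 gene with an unadjusted p under 0.05), nor with the variance following intensity (smallest adjusted p = 0.122).

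**Figure D4:**
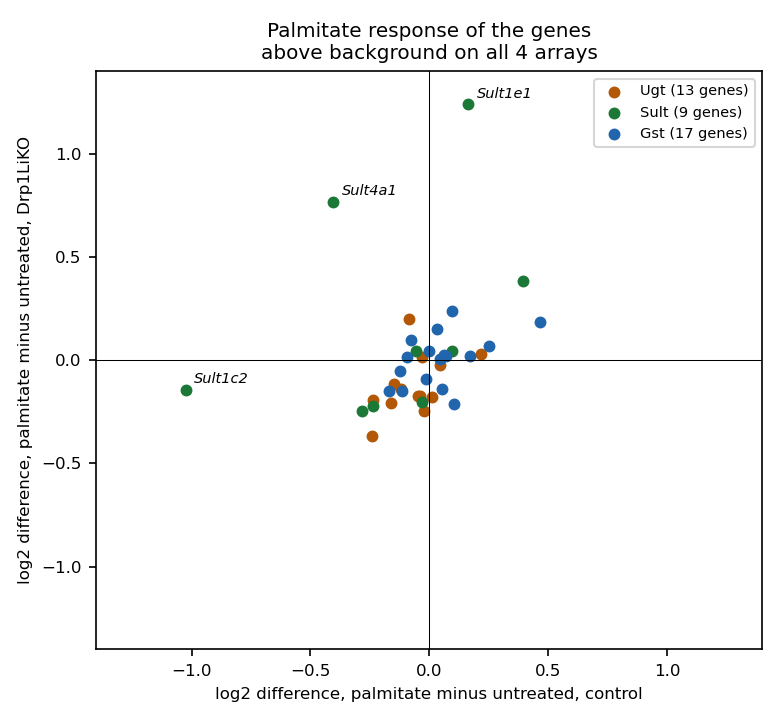
Log2 difference between the palmitate and the untreated array in control (horizontal) and in Drp1LiKO hepatocytes (vertical) for the 39 genes detected on all 4 arrays, coloured by family. Most genes lie within 0.5 of 0 on both axes, and Sult1e1, Sult4a1 and Sult1c2 lie outside.

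The genes that supply the cofactor of glucuronidation had medians close to those of all genes (-0.02 untreated and -0.03 with palmitate). The medians of the genes listed for the cofactor of sulfation lay lower. Of all genes, 10370 of 19875 were lower in Drp1LiKO untreated and 10138 of 18890 with palmitate. Of the 5 genes that make and carry UDP-glucuronic acid, 3 were lower in Drp1LiKO in each condition (median -0.10 and -0.04), with Ugdh, which makes it, at -0.12 and -0.14. The 7 genes listed for the cofactor of sulfation hold transporters and phosphatases beside the PAPS synthases. Of these 7, 6 were lower untreated and 5 with palmitate (median -0.36 and -0.25). The PAPS synthases Papss1 (-0.43 and -0.28) and Papss2 (-0.37 and -0.46) were among those lower. None of the 12 passed 2-fold.

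Of the 11 measured genes of glutathione supply and breakdown 9 were higher in each condition (median 0.25 and 0.10). Chac1 (-0.37 and -0.71) and Chac2 (0.47 and 0.29), both in this list, break glutathione down. The subunits of glutamate-cysteine ligase, the rate-limiting enzyme, differed by 0.50 and 0.14 (Gclc) and by 0.62 and 0.04 (Gclm). Cbs, which starts the path from homocysteine to cysteine, differed by -0.95 in untreated cells and by -1.12 where palmitate was given, the one gene of this list past 2-fold. The membrane and other glutathione-handling enzymes had medians of -0.04 and -0.26, with Mgst1 at 0.15 and 0.07. Other conjugating enzymes, the methyl, acetyl and glycine transferases and their neighbours, had medians of -0.16 and -0.22 (6 and 7 of 8 lower), with Nnmt at -0.93 and -0.81 and Glyat at -0.73 and -0.56. The deconjugating enzymes had medians of 0.14 and 0.29, with beta-glucuronidase (Gusb) at -0.36 and -0.47.

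Among the 9 measured transporters of conjugates the median was 0.19 untreated and 0.26 with palmitate. Slco1b2, the hepatocyte uptake carrier of bilirubin and its conjugates, was higher by 1.19 in both conditions. Abcc2, which exports glucuronides into bile, differed by 0.91 and 0.69, and Abcg2, which exports sulfates, by -0.83 and -0.88. Abcb1a, a drug efflux pump, differed by -0.47 between the untreated arrays and by 1.78 between the palmitate arrays.

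Among the 11 measured regulators the medians were 0.04 and 0.05. Nr1i3, which encodes CAR, was the one past 2-fold, at 1.72 and 1.27, while Nfe2l2 (NRF2) differed by -0.49 and -0.32 and Ahr by 0.04 and 0.33. Nr1i3 was dim, at -4.61 in untreated control cells, near the lowest detected level of that array (-4.74), and at -2.89 in untreated Drp1LiKO cells. The 11 indicator genes of these regulators were all higher in Drp1LiKO in both conditions (median 0.82 and 0.46). Cyp3a11, a PXR and CAR target, differed by 2.23 and 2.31 and Cyp2b10, a CAR target, by 1.86 and 1.49. NRF2 targets differed by less, as for Nqo1 (0.39 and 0.24), Txnrd1 (0.47 and 0.47) and Srxn1 (0.92 and 0.58), and Cyp1a1 and Cyp4a14 were detected on 2 arrays only.

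**Figure D5:**
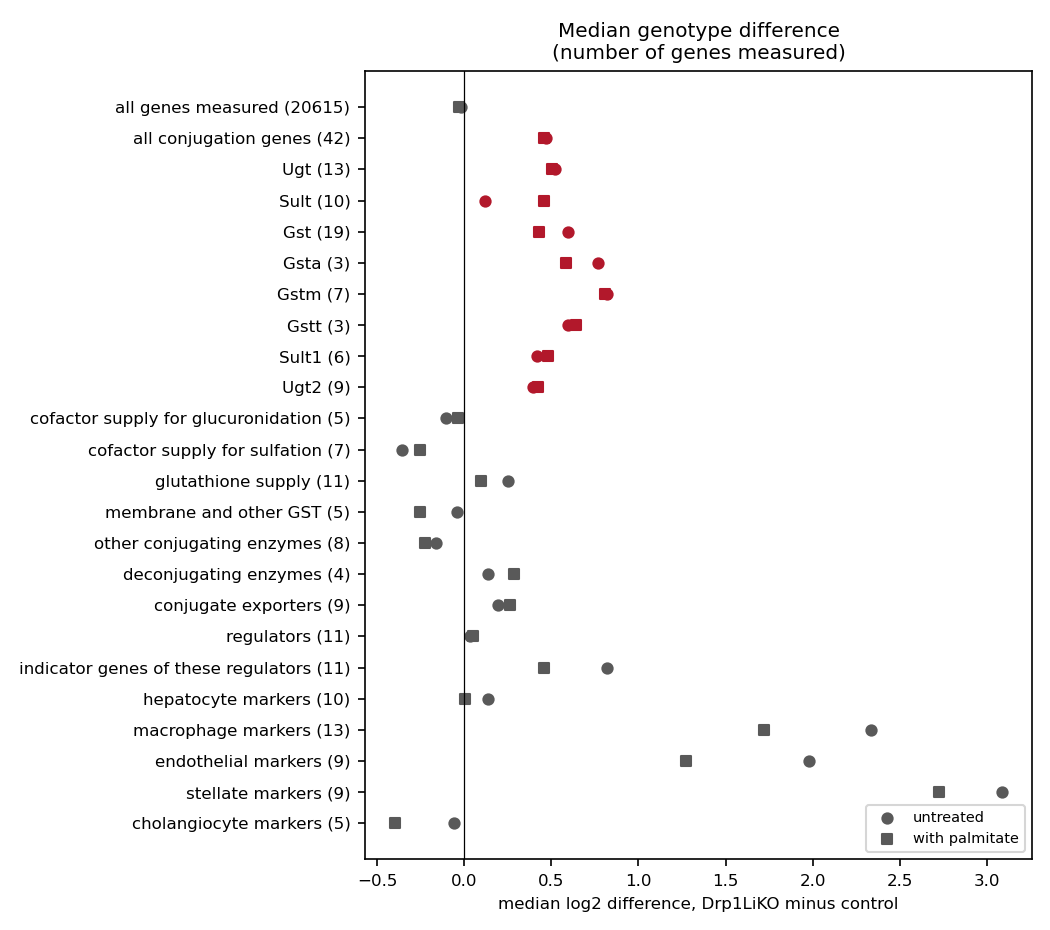
Median log2 difference between Drp1LiKO and control, untreated (circles) and with palmitate (squares), for all genes, the conjugation families and classes with at least 3 measured genes (red), and the lists of pathway and marker genes (grey). The Ugt and Gst families lie near 0.5 and the cofactor lists at or below 0, while macrophage, endothelial and stellate markers lie above 1 as measured, with undetected values kept.

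Markers of other liver cells moved with genotype as well. Hepatocyte markers, 10 of 10 detected on all arrays, had a median difference of 0.14 untreated and 0.01 with palmitate. Untreated 7 were higher and 3 lower, and with palmitate 5 and 5. Single markers differed more. Tat was at least 2-fold higher in both conditions (1.22 with palmitate), Cps1 differed by 0.94 and 1.12, and Cyp2e1 by -0.66 and -0.72. Their summed level relative to the 75th percentile ranged from 1338 to 1362. That sum is mostly Serpina1a and Alb, at 9.45 and 8.82 in untreated control cells, so it says little about the other markers. Of 13 measured macrophage markers (15 listed), 13 were higher untreated and 11 of 12 with palmitate, and the summed level was 24.5 and 29.3 on the control arrays and 54.4 and 52.2 on the Drp1LiKO arrays. At least 2-fold higher were 10 of 13 untreated, against 8.84% of all genes, and 9 of 12 with palmitate, against 7.26%. Cd14, the brightest of them on the control arrays, differed by 0.22 and 0.05, and Ptprc by 0.17 and -0.02. The summed level of 9 endothelial markers was 1.70 and 1.68 against 4.96 and 3.55, and that of 9 stellate markers 45.2 and 46.5 against 62.5 and 59.2. The stellate sum is mostly Acta2, a smooth muscle actin, which stood at 5.46 and 5.69 in untreated control and Drp1LiKO cells, whereas Dcn differed by 4.19 and 4.04 and Col1a2 by 3.02 and 2.44. With undetected values raised to the lowest detected signal, the median differences untreated and with palmitate were 2.34 and 1.65 for macrophage, 1.63 and 0.87 for endothelial and 2.22 and 0.83 for stellate markers. Cholangiocyte markers, 5 of 7 measured, were lower in sum, at 61.1 and 57.8 against 42.3 and 44.2. That sum is mostly Spp1, which stood at 5.67 and 5.07 in untreated control and Drp1LiKO cells. The median differences of the 5 were -0.06 untreated and -0.40 with palmitate, with 2 higher untreated and 1 with palmitate. On the control arrays 4 of 9 stellate markers were detected, and Lrat and Vsig4 were so on 1 array only. In bulk RNA a change in the number of cells of a type and a change in RNA per cell cannot be told apart, and the part of other cells in the conjugation genes' differences was not tested.

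Promoters were read from RefSeq (GRCm38.p6), 250 bases before to 50 after the gene start, for the 37 of 42 measured genes with an entry (45 of the 53). Without an entry were Gsta4, Gstt2, Sult2a1, Sult2a2, Sult2a7, Sult4a1, Ugt1a6b and Ugt3a2. Letters were searched on both strands, and a match is a description and not a site. The core of the antioxidant response element, TGACNNNGC, which NRF2 is known to bind, was in 3 of 37 (8.11%), Gsta3, Gstm5 and Gstm7, against 14% of 27025 genes. The core of the xenobiotic response element, GCGTG, known for the aryl hydrocarbon receptor, was in 6 of 37 (16.2%), against 35.2%, and 1 of its matches, in Gstm5, overlapped the antioxidant core. The core of the HNF1 site, a motif of 10 letters with 1 of them free, was in 3 of 37 (8.11%), Ugt1a10, Sult1d1 and Sult2a4, against 0.47%.

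Of the genes with the antioxidant core, Gsta3 and Gstm7 were higher in Drp1LiKO and Gstm5 was not. Of those with the HNF1 core, Ugt1a10 was at least 2-fold higher in both conditions, Sult1d1 was higher by less than 1.5-fold and Sult2a4 was measured on 1 array. The 60 bases around each of these matches follow, on the gene's strand, with the match in capitals. The matches began between 42 (Gstm5) and 129 (Gstm7) bases before the gene start. The stretches lie, in the order printed, at chr1:88055311-88055370, chr5:87569051-87569110, chr7:13989661-13989720, chr1:21240439-21240498, chr3:107931709-107931768 and chr3:107895787-107895846.
Ugt1a10: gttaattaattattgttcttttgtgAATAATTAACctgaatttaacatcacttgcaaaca
Sult1d1: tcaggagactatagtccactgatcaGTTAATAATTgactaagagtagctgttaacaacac
Sult2a4: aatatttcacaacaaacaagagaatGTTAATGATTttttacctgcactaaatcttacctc
Gsta3: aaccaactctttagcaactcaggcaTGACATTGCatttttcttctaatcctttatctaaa
Gstm7: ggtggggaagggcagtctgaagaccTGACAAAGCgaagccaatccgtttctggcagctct
Gstm5: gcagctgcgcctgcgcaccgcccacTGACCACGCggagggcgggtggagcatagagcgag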

How the data were processed

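Groups were taken from the sample titles. The authors hybridised RNA of each of the 4 groups to an Agilent 1-colour array. They deposited scanner files, whose processed signal is a background-corrected intensity, and a value table on a linear scale. Per the labels the arrays were read with Agilent Feature Extraction 9.5.1.1, while the file headers name version 10.7.1.1. The labels name TRIzol with a column kit for RNA and the methods another kit. Coordinates in the scanner files are mm9. The alternatives tried were other normalizations and scalings, the deposited table, other probe rules and background filters, and leaving out genes beside lit spots. The deposited value table, of which log2 was taken here, matched the scanner intensity in rank (Spearman 1) and appears quantile-normalized. No spot was saturated.

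Log2 processed signal was taken, the array's 75th percentile over all non-control spots subtracted, and repeated spots averaged with numpy 2.4.6 and pandas 2.3.3. Probes flagged well above background were called detected. Among probes detected on any array, the brightest by mean stood for its gene. A difference counted where either array detected the probe, and one of at least 2-fold was called. Additive fits used limma 3.58.1 (lmFit, eBayes, Benjamini-Hochberg over all genes) in R 4.3.3, tested on simulated data. Named genes were those at least 2-fold different with both arrays detecting the probe and a list of genes with known liver roles. Other members are named for completeness. Members and lists were chosen with earlier results of these data known. The samples cannot be called separate cultures or animals from the labels. Precision is limited by their number, 1 array a group.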

Additional observations from a re-analysis of the deposited data

Results flagged for a closer look

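Sult4a1 had palmitate responses of opposite sign in the 2 genotypes. The log2 difference between the palmitate and the untreated array was -0.40 in control and 0.77 in Drp1LiKO hepatocytes, and the difference of 1.17 between the responses was not tested, since each group had 1 array. With 2 probes averaged the response in Drp1LiKO was -1.30. The second probe was not detected on either palmitate array, so its change from -2.14 to -5.50 in Drp1LiKO is a fall to background. It is not a second measured response.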

How the results depend on the processing

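No paired analysis was possible because each group has 1 array, beyond the additive fit, whose palmitate term is also the slide that holds 1 array of each genotype. For the same reason no array could be left out of a comparison of 2. The count of genes at least 1.5-fold higher in Drp1LiKO in both conditions was 12 as reported and between 9 and 14 under the 8 alternatives, and the Ugt and Gst medians of the genotype difference stayed above 0 in all of them. Scaling on the array median shifted the genotype differences of all genes to a median of -0.20 untreated and -0.17 with palmitate, a constant per array that cannot alter the conjugation genes' distance from all genes. Under that scaling 4 genes untreated and 3 with palmitate were at least 1.5-fold lower, 2 were so in both conditions, and 11 were lower at all in both. The untreated Sult median was -0.06 there, against 0.12 as reported. With normexp and quantile normalization 0 genes were at least 2-fold higher untreated, the Sult median with palmitate was 0.25, and 1 gene was at least 2-fold lower with palmitate in control cells, as with the authors' value table, which also gave 1. With the mean of all probes 1 gene was at least 2-fold lower untreated and 1 at least 1.5-fold lower, 1 was at least 2-fold lower with palmitate in Drp1LiKO cells, and Sult4a1 reversed, to 0.44 for the untreated genotype difference and -1.30 for palmitate in Drp1LiKO cells. Requiring detection on both arrays left 1 gene at least 2-fold lower untreated, 1 at least 1.5-fold lower, 2 at least 2-fold higher with palmitate and 1 at least 2-fold lower with palmitate in control cells. Without a background filter, values at background entered. The Sult median became -0.23 untreated and reversed to -0.33 with palmitate, and for the palmitate responses it was 0.40 in control and 0.43 in Drp1LiKO cells. There 2 genes were at least 2-fold lower and 2 at least 1.5-fold lower with palmitate, the palmitate response was 2-fold upward for 1 gene in control cells and for 2 in Drp1LiKO cells, and downward for 1 there, and 15 were lower in both conditions. Without genes beside 2 or more lit spots 1 gene was at least 2-fold lower untreated, 1 at least 1.5-fold lower, 0 at least 2-fold lower with palmitate in control cells, and 4 lower in both conditions. The additive fit called 28 conjugation genes for genotype with the variance following intensity, 21 with genes detected on all arrays and 12 with normexp and quantile normalization, against 0 as reported. The cause of these changes was not tested. Dim genes such as Gstm7 and Gsto2 limit what the signal over background can show.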

Other observations

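With palmitate the glutamate-cysteine ligase genes Gclc and Gclm were higher in control cells by 0.47 and 0.64 (log2) and in Drp1LiKO cells by 0.11 and 0.06. Slc7a11, the cystine carrier, differed by 0.42 and 0.25, and Nqo1 by 0.34 and 0.19. The differences between the genotypes' responses were not tested. The Gst family had medians of 0.05 (control) and 0.02 (Drp1LiKO), and its alpha class 0.25 and 0.07, with Gsta2 at 0.47 and 0.18. Abcb1a, a drug efflux pump, differed by 1.82 with palmitate in Drp1LiKO cells and by -0.43 in control cells.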
